A study of Homo sapiens with 47 samples.

Results

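The genes described here are the very long protein-coding genes of chromosomes 1 to 22, those whose RefSeq span from first to last annotated base is 600 kb or more. ROBO1, ROBO2, SLIT3, RBFOX1 and CELF2, 5 genes that meet the span rule, were left out. The rule left 198 of 19122 protein-coding genes. Their spans ran from 603.3 kb (TMEM117) to 2304.2 kb (CNTNAP2) with a median of 845.6 kb, and those of the 184 genes with a known strand together covered 15.3% of the sequence spanned by protein-coding genes with a known strand. The strand came from annotated start sites for 163 genes and from the strand of the PTBP1 clusters themselves for 21. The other 14 genes have no strand here and hold 6 PTBP1 clusters in all at 10,000,000 cells, counted on both strands, with 10 of them at 0. The values below concern the 184, of which the 21 were therefore kept through the 10,000,000-cell list itself. Shares of genes with a cluster are for that reason given over the 163, except in the gene lists.

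All groups described here are stable lines of Lenti-X 293T, a derivative of HEK293T chosen for lentivirus production. Each expresses the protein under study and was crosslinked with 400 mJ/cm2 of UV-C. In uSpyCLIP-seq the crosslinked protein is captured on SpyCatcher and the RNA fragments that stay bound are sequenced. For PTBP1 there are 4 inputs, 10,000,000, 100,000, 10,000 and 1000 cells, and for RBFOX2 the largest of these, at 2 libraries per input. SpyCatcher 1.0 and 2.0 were each used at 20 and 40 µg, with 1 library each and a protein that the labels do not name. The RNA-binding nucleases dPspCas13b and dRfxCas13d, catalytically dead forms, were profiled after crosslinking without a guide RNA and with the guides EZH2g1 and EZH2g2, with 3 libraries each. Crosslinked binding sites were deposited as 1 list per group, with positions and strand but no read counts, so there is no spread between replicates, no test and no p-value. Depth behind a site is unknown. Intervals in parentheses are 95% intervals, exact Poisson for numbers, densities and ratios of numbers and exact Clopper-Pearson for shares, and they cover counting error only. The narrow sites of PTBP1, RBFOX2 and the SpyCatcher lists are called clusters. A cluster belongs to a gene when its midpoint lies in the span on the gene's strand.

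PTBP1, the polypyrimidine tract binding protein, binds runs of pyrimidines in pre-messenger RNA, mostly in introns, and is best known for repressing exons. RBFOX2 binds a GCATG element, also largely in introns, and promotes or represses exons according to where it sits. A gene of this size is almost all intron, takes polymerase many hours to cross, and many such genes encode adhesion molecules, receptors and scaffolds of neurons that a kidney line reads little. Several lie at common fragile sites, places where chromosomes break under replication stress.

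Very long genes carried PTBP1 clusters at a lower density than other genes. They held 38071 of the 964422 clusters found at 10,000,000 cells, 3.95% of the list (3.91 to 3.99). The density was 0.218 clusters per kb (0.216 to 0.220), against 0.864 per kb (0.862 to 0.866) over all other protein-coding genes. By span the density was 1.09 per kb under 10 kb, 1.19 from 10 to 50 kb, 1.10 from 50 to 100 kb, 0.834 from 100 to 300 kb and 0.413 from 300 to 600 kb, so the fall begins well below the 600 kb limit. The lists carry no measure of how much of each RNA the cells held, and a sparsely bound RNA cannot be told apart from a rare one. Genes just inside the limit were TMEM117 with 166 clusters, ADGRV1 with 219 and PRELID2 with 173. Just outside it were STK3 with 498, SNX29 with 63 and AFF3 with 59.

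**Figure D1:**
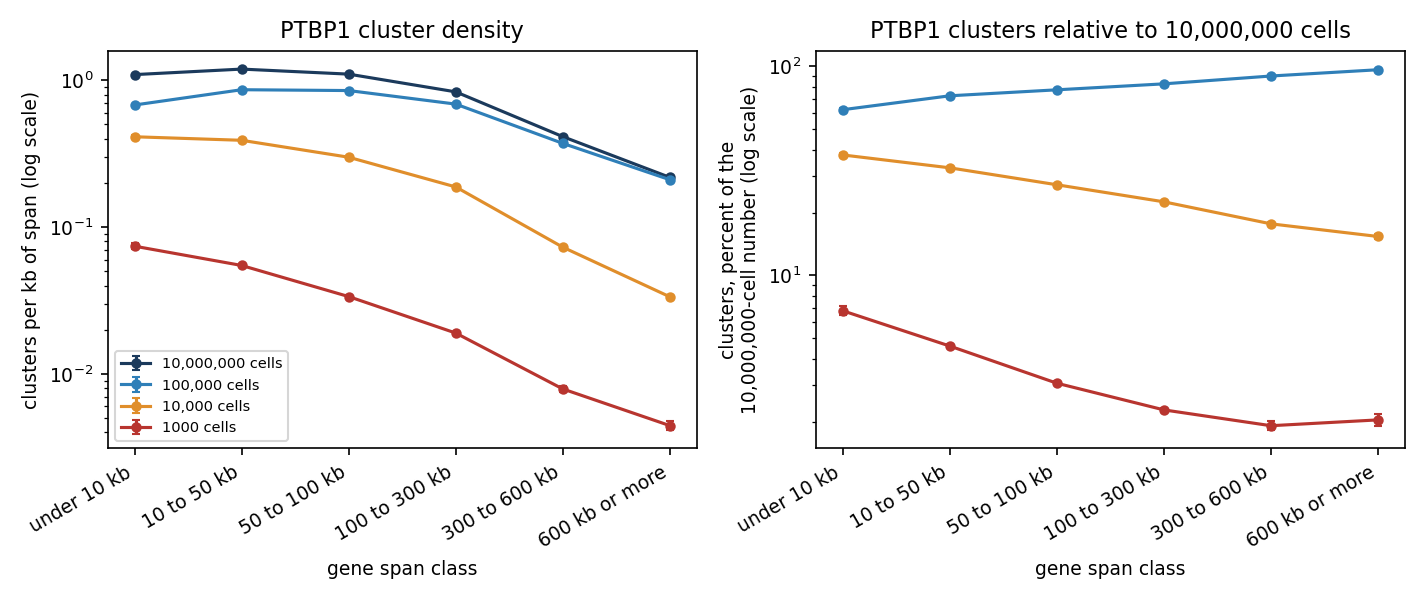
PTBP1 clusters per kb of gene span (left, log axis) and the number of clusters relative to the 10,000,000-cell list (right, percent, log axis) for protein-coding genes in 6 span classes; each line is 1 input and bars are exact Poisson 95% intervals. Genes of 600 kb or more have the lowest density at every input (0.218 per kb at 10,000,000 cells), the highest relative number at 100,000 cells (96.4%) and the lowest at 10,000 cells (15.4%).

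The low density hides a wide spread among the genes. At 10,000,000 cells 151 of the 184 genes had a cluster. Of the 163 genes with an annotated strand 130 (79.8%) had one, beside 62.9% of the 15100 protein-coding genes with an annotated strand. The share was 78.9% from 50 to 100 kb, 84.3% from 100 to 300 kb and 80.4% from 300 to 600 kb, so the share in very long genes lay within the range of the other classes above 50 kb. A gene of this set held a median of 83.5 clusters, 85 genes held 100 or more, 34 held 1 to 9, and 33 held none. The density was under 0.1 per kb in 98 genes, 0.1 to 1 per kb in 78 and 1 per kb or more in 8. TTC28, FHIT and LRBA alone held 12.1% of the summed clusters and the 20 fullest genes 45.6%. The longer of them were sparser: the 80 genes of 600 to 800 kb held 0.347 clusters per kb (0.342 to 0.352) and the 104 of 800 kb or more 0.158 (0.156 to 0.160). Gene by gene the relation was loose, with a Spearman's rho of -0.18 between span and density across the 184 genes, which share the same lists. Clusters on the opposite strand of the same spans numbered 689, of which 139 lay outside any gene of that strand.

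TTC28, a tetratricopeptide repeat protein of dividing cells (chr22:27978014-28679840, minus strand), was the fullest and the densest. It held 1652 clusters (1573 to 1734), 2.35 per kb, at 10,000,000 cells, 1688 at 100,000, 425 at 10,000 and 31 at 1000. Its neighbouring clusters lay a median of 33 nt apart, and its opposite strand held 1. LRBA, a scaffold of vesicle trafficking needed to keep CTLA4 on T cells (chr4:150264435-151015727, minus strand), followed it in density with 1.98 per kb and 1484 (1409 to 1561), 1396, 334 and 30 clusters at the same inputs. FHIT, a diadenosine triphosphate hydrolase at the fragile site FRA3B (chr3:59747277-61251452, minus strand), had 1507 clusters (1432 to 1585), 1226, 175 and 17. The counting intervals of FHIT and LRBA overlap at 10,000,000 cells, while FHIT, with a span of 1504.2 kb against 751.3 kb, had a lower density of 1.00 per kb. At 10,000 cells FHIT held 11.6% of its 10,000,000-cell number, against 22.5% in LRBA and 25.7% in TTC28.

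The genes next in number have roles of many kinds. CDKAL1, a transfer RNA modifying enzyme, held 957 clusters, and KLF12, a transcriptional repressor, held 942. GPHN, the inhibitory synapse scaffold gephyrin that also makes molybdenum cofactor, held 917, of which 21.8% also lie in another gene of the same strand. RAD51B, which acts in homologous recombination, held 905. AUTS2, a neurodevelopmental regulator of transcription, held 880. GMDS, which makes GDP-fucose, held 865. SMYD3, a lysine methyltransferase, held 817. RABGAP1L had 716, the mitochondrial peptidase subunit IMMP2L 696, the junction scaffold MAGI1 683, and the exocyst subunits EXOC4 and EXOC6B 668 and 646. Their intervals overlap between neighbours in this order, for example 761.9 to 875.0 for SMYD3 and 808.3 to 924.6 for GMDS. In density the order is TTC28, LRBA, KLF12 (1.52 per kb), GMDS (1.39), CDKAL1 (1.37), SMYD3 (1.08), RAD51B (1.05) and FHIT (1.00), followed by MAGI1 (0.997) and EXOC6B (0.994). The strand of EXOC6B was inferred from its own clusters.

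Letters around clusters could be read where a cluster lies in one of the 300-nt windows around annotated start sites (RefSeq, GRCh38.p14) that fall within these genes. This gave 63 clusters in 23 genes. The 12 below are from the 8 fullest genes with a cluster of 5 to 10 nt there, up to 2 per gene, and are shown so that the bound stretches can be set beside the numbers. Each is read 5′ to 3′ on the gene's strand with T for U, the cluster is in capitals, and 10 nt on each side are in lower case.
TTC28, chr22:28443844-28443848, minus strand: ctaagtatgtCTTTTgaaatgattt
LRBA, chr4:150579029-150579035, minus strand: aatccgtctcATCATACttgagttaat
LRBA, chr4:151015400-151015405, minus strand: gccgctccccTCCCTTcctgccacca
CDKAL1, chr6:21231170-21231179, plus strand: ttctcagccaCTCTTCTTAAtgaggctccc
CDKAL1, chr6:21231285-21231293, plus strand: cttttggtttACTTTTAGCaagaaatgca
KLF12, chr13:74027046-74027054, minus strand: aacactgtctAACTTGCTGgctctttctg
KLF12, chr13:74027036-74027043, minus strand: acttgctggcTCTTTCTGctctgctgtt
GPHN, chr14:67360353-67360358, plus strand: agcgaagcgcACGCTGaggaggatcg
RAD51B, chr14:68167210-68167218, plus strand: gtcttgaatcCTCTTATGAcctctgttct
RAD51B, chr14:68610672-68610677, plus strand: tttgttcgccTGTTTTatcttccaga
AUTS2, chr7:70696873-70696878, plus strand: taaacaggctTTTTTTtccccttcta
FOXP1, chr3:71337772-71337777, minus strand: taatggagaaGAGCTTattaaccttt

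Of the 12, 6 clusters are at least 80% pyrimidine, and 6 of the printed stretches hold TCTT. Only 4 of the 12 lie in a start-site window of the named gene itself. In 7 the window is that of an lncRNA locus on the opposite strand. The cluster of GPHN lies at the start of EIF2S1, a gene within its span on the same strand, and could come from either RNA. The 100,000-cell list overlapped 5 of these 12 clusters, the 10,000-cell list 1 (the KLF12 cluster that contains TCTTTCT) and the 1000-cell list 0. Over all 63 clusters, 48.2% of the bases were U and 27.8% C, against 28.4% and 27.1% in the rest of the same windows. In other protein-coding genes, 2161 clusters in such windows were 43.6% U and 29.3% C, against 22.4% and 29.9%.

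Pyrimidine motifs followed the clusters in both sets of genes. TCTT stood within 20 nt of the cluster's midpoint in 28 of 56 clusters of very long genes, 50.0% (36.3 to 63.7), and in 23.4% (16.6 to 31.3) of 137 stretches of 41 nt without a cluster from the same windows. TTTCT stood in 26.8% (15.8 to 40.3) against 12.4% (7.40 to 19.1), and these intervals overlap. None of the motifs searched contains another, but several can stand in 1 stretch. CTCTCT stood in 3 of the 56 and GCATG, the RBFOX element, in 0. Only the gene's strand was searched. Other protein-coding genes gave 40.5% (38.3 to 42.8) and 15.8% (14.7 to 17.0) for TCTT. Most clusters of these genes lie outside such windows, and their letters were not read here.

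With fewer cells the very long genes first gained weight in the list and then lost it. At 100,000 cells they held 36703 clusters, 96.4% (95.4 to 97.4) of the 10,000,000-cell number, while other genes held 78.9% (78.7 to 79.1). Their share of the list rose from 3.95% to 4.77% (4.72 to 4.82). At 10,000 cells they held 5850, 15.4% (14.97 to 15.8) against 26.1% (26.0 to 26.2) in other genes, and their share was 2.36% (2.30 to 2.42). At 1000 cells they held 776, 2.04% (1.90 to 2.19) against 3.12% (3.09 to 3.16), and their share was 2.51% (2.34 to 2.69). The whole lists fell to 79.8%, 25.7% and 3.21%. Genes of 300 to 600 kb held 89.98%, 17.7% and 1.91% of their 10,000,000-cell numbers, and genes under 10 kb 62.1%, 37.7% and 6.78%. Very long genes were thus the highest class at 100,000 cells and the lowest at 10,000. At 1000 cells their 2.04% stood above the 1.91% (1.82 to 2.01) of genes of 300 to 600 kb, but the intervals overlap. Without LRP1B and DAB1 the value of very long genes was 1.67%.

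Gene by gene, a loss was called when the gene's number fell by more than 2-fold relative to the whole list (pseudocount 0.5), among genes expected to hold at least 5 clusters. At 100,000 cells 16 of 119 very long genes were past that fold, beside 16.2% of all protein-coding genes tested, and 7 were past it upwards, beside 1.24%. The median log2 change of share was 0.16 in very long genes and -0.18 in all genes tested. At 10,000 cells 66 of 113 (58.4%) had lost share, beside 32.9% of all, with a median of -1.23 against -0.32. In the class of 300 to 600 kb the figure was 60.3%, close to that of the very long genes. At 1000 cells 49 of 72 (68.1%) had lost share, beside 43.5%, with a median of -1.44 against -0.75, and 4 had gained, beside 12.2%. Genes entered these counts through their number at 10,000,000 cells, which favours losses and leaves out genes high only at low input. Over genes whose mean of expected and found number was at least 5, so that either list could bring them in, 15 of 117 very long genes were past 2-fold lower at 100,000 cells, beside 13.6% of all genes entered. At 10,000 cells it was 58 of 105, beside 26.8%, and at 1000 cells 39 of 67, beside 20.2%. Past 2-fold upwards were then 2 at 10,000 cells, beside 13.8%, and 9 at 1000, beside 35.6%. In the class of 300 to 600 kb 57.8% were lower at 10,000 cells and 50.0% at 1000.

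Among other protein-coding genes the number kept at 10,000 cells was lower in the sparser classes, so very long genes were also compared with others at like density. Among genes with 0.1 to 0.3 clusters per kb at 10,000,000 cells, 33 very long genes held 15.5% of their clusters' number at 10,000 cells and 1214 other genes 9.28%. From 0.3 to 1 per kb the values were 14.4% and 12.3%. From 1 to 3 per kb they were 18.9% in 8 very long genes and 25.5% in 4617 others, and below 0.1 per kb 7.27% and 8.88%. At 100,000 cells the very long genes were higher in each of these 4 density classes, by 105.2% against 68.9% in the class from 0.1 to 0.3. No very long gene reached 3 per kb, a class of 1474 other genes that held 43.0% of their number at 10,000 cells. At like density, then, very long genes were lower at 10,000 cells in 2 of the 4 classes and higher in the other 2. At 1000 cells they were higher from 0.1 to 0.3 per kb, with 5.44% against 2.74%, and lower in the other 3 classes. The class from 0.1 to 0.3 contains LRP1B, DAB1, ZFHX3 and PDE4D, with 78, 72, 44 and 36 clusters at 1000 cells. These genes hold most of its clusters at that input, but only 252, 356, 175 and 211 of its 5661 at 10,000,000 cells. The higher value of the class at 1000 cells thus rests on them, and the comparison without them was not run. The values in the other 3 classes were 6.64% against 7.37% below 0.1, 0.925% against 1.59% from 0.3 to 1, and 1.53% against 2.44% from 1 to 3 per kb.

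**Figure D2:**
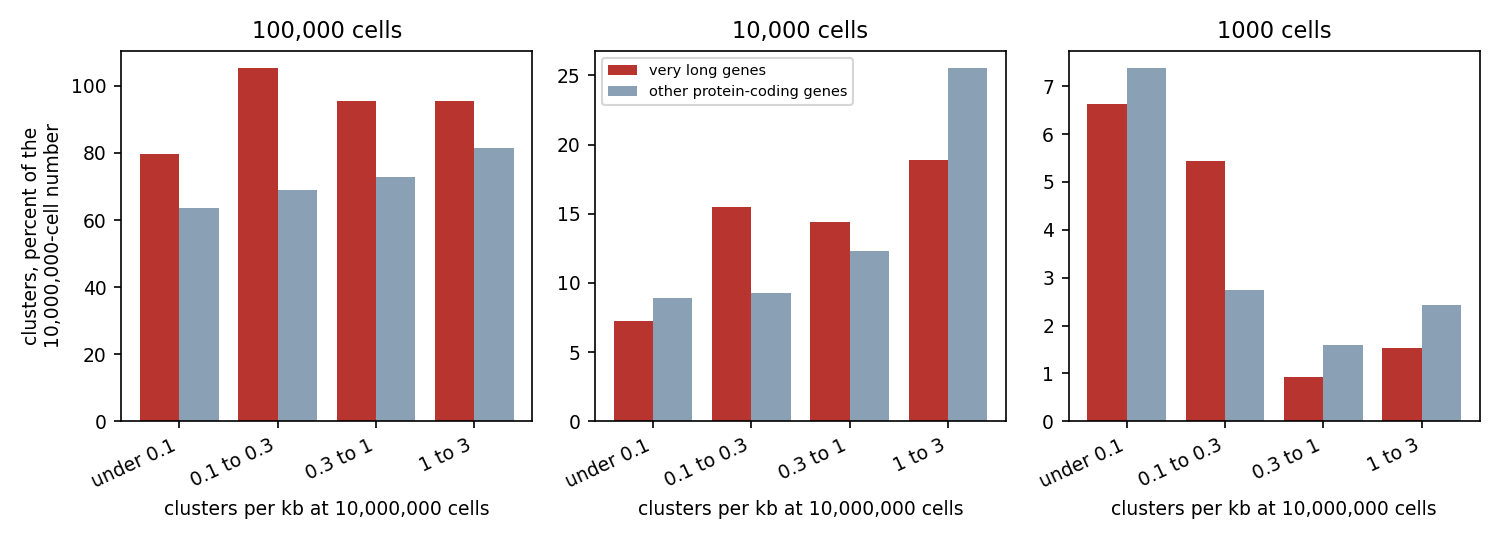
Pooled number of PTBP1 clusters at 100,000, 10,000 and 1000 cells as a percent of the number at 10,000,000 cells, for very long genes (red) and other protein-coding genes (grey) grouped by density at 10,000,000 cells; bars start at 0 and each panel has its own scale. Very long genes are higher in all 4 classes at 100,000 cells, and at 10,000 cells higher in the 2 middle classes and lower in the others, for example 18.9% against 25.5% from 1 to 3 per kb. At 1000 cells they are higher from 0.1 to 0.3 per kb only (5.44% against 2.74%), a class where LRP1B, DAB1, ZFHX3 and PDE4D hold most of the clusters.

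The same place was found again less often in very long genes than elsewhere. Of their 38071 clusters at 10,000,000 cells, 38.0% (37.5 to 38.5) were overlapped by at least 1 nt at 100,000 cells, 8.59% (8.31 to 8.88) at 10,000 and 0.638% (0.561 to 0.723) at 1000. In other protein-coding genes the shares were 41.6% (41.5 to 41.7), 16.1% (16.1 to 16.2) and 1.84% (1.81 to 1.87). Seen from the smaller list, 40.0% of the 100,000-cell clusters of very long genes overlapped one at 10,000,000 cells, against 56.9% in other genes, so a like number of clusters at 100,000 cells was not the same set of places. A denser gene offers more clusters to overlap by position alone, and its part in these shares was not tested.

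Single genes moved in opposite directions at 100,000 cells. LRP1B, a large endocytic receptor (chr2), held 252 clusters at 10,000,000 cells and 813 at 100,000, a log2 change of share of 2.01. NKAIN2, a partner of the sodium pump, went from 23 to 79. LRRTM4 and NRXN3, both synaptic adhesion proteins, HDAC9 and PARD3B are also among the 7 genes past 2-fold upwards. NAV2, a helicase-like protein of neurite growth, and INPP4B, a phosphoinositide phosphatase, had the lowest values, with log2 changes of -5.61 and -4.91. SPAG16, a sperm flagellum protein, held 634, 195 and 152 clusters at 10,000,000, 100,000 and 10,000 cells. FOXP2, a transcription factor of neural circuits, held 575, 855 and 181. LRRTM4, NRXN3, HDAC9, PARD3B, NAV2 and INPP4B were picked after their values were seen.

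At 1000 cells 113 of the 184 genes still had a cluster, but mostly few. Of the 163 with an annotated strand it was 98 (60.1%), beside 33.0% of all protein-coding genes with one, 55.5% from 100 to 300 kb and 53.8% from 300 to 600 kb. TTC28 and LRBA, with 31 (21.1 to 44.0) and 30 (20.2 to 42.8), were each at 1.88% and 2.02% of their full number. NLGN1, a postsynaptic adhesion protein, held 502 clusters at 10,000,000 cells, then 575, 60 and 0 as the input fell, and FOXP2 ended at 0 where 18.4 were expected from the ratio of the lists. AGAP1, ANK2, RPS6KC1, SCHIP1 and the overlapping readthrough gene IQCJ-SCHIP1 were also at 0, and PTPRG, a receptor tyrosine phosphatase, was at 1 where 19.6 were expected. The interval of a 0 reaches up to 3.69 clusters. Genes were tested only when at least 5 were expected, so this holds for any tested gene at 0. It adds nothing about these genes, which were picked for their low ratios.

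A few genes did the reverse. LRP1B held 78 clusters at 1000 cells (61.7 to 97.3) where 8.08 were expected, more than any other very long gene. DAB1, the reelin adaptor, held 72 (56.3 to 90.7) where 11.4 were expected, but 37 of these (51.4%) and 61.2% of its 10,000,000-cell clusters also lie in OMA1, a gene within its span on the same strand, and could come from either RNA. ZFHX3, a homeodomain transcription factor, held 44 where 5.61 were expected, and PDE4D, a cyclic AMP phosphodiesterase, 36 where 6.76 were expected. These 4 are the genes past 2-fold upwards. Too sparse to be tested, PCDH9 held 86 clusters at 10,000,000 cells and 21 at 1000, MAGI2 85 and 19, CDH12 53 and 15, and LSAMP 30 and 13. All 4 are adhesion proteins or scaffolds of neurons, and they were picked after their values were seen.

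The 1000-cell clusters of these genes were narrow, scattered and mostly elsewhere than at 10,000,000 cells. In LRP1B they were a median of 3 nt wide, neighbours lay a median of 6906 nt apart, and 8 of 78 (10.3%) overlapped a 10,000,000-cell cluster, where the spacing was 270.0 nt. In PDE4D 2 of 36 (5.56%) overlapped, in PCDH9 2 of 21, in MAGI2 1 of 19, in CDH12 1 of 15 and in LSAMP 0 of 13. DAB1 had 16 of 72 (22.2%) and ZFHX3 18 of 44 (40.9%). In TTC28 22 of 31 (71.0%) and in FHIT 12 of 17 (70.6%) did, at a median width of 5 and 4 nt. Over all very long genes 32.1% (28.8 to 35.5) of the 1000-cell clusters overlapped a 10,000,000-cell cluster and 50.8% were 3 nt wide or less. In other genes 73.9% (73.4 to 74.5) overlapped and 27.5% were that narrow. Without LRP1B and DAB1 the overlap of very long genes was 35.9%, their number at 1000 cells relative to 10,000,000 was 1.67% instead of 2.04%, and their share of the 1000-cell list was 2.03% instead of 2.51%.

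**Figure D3:**
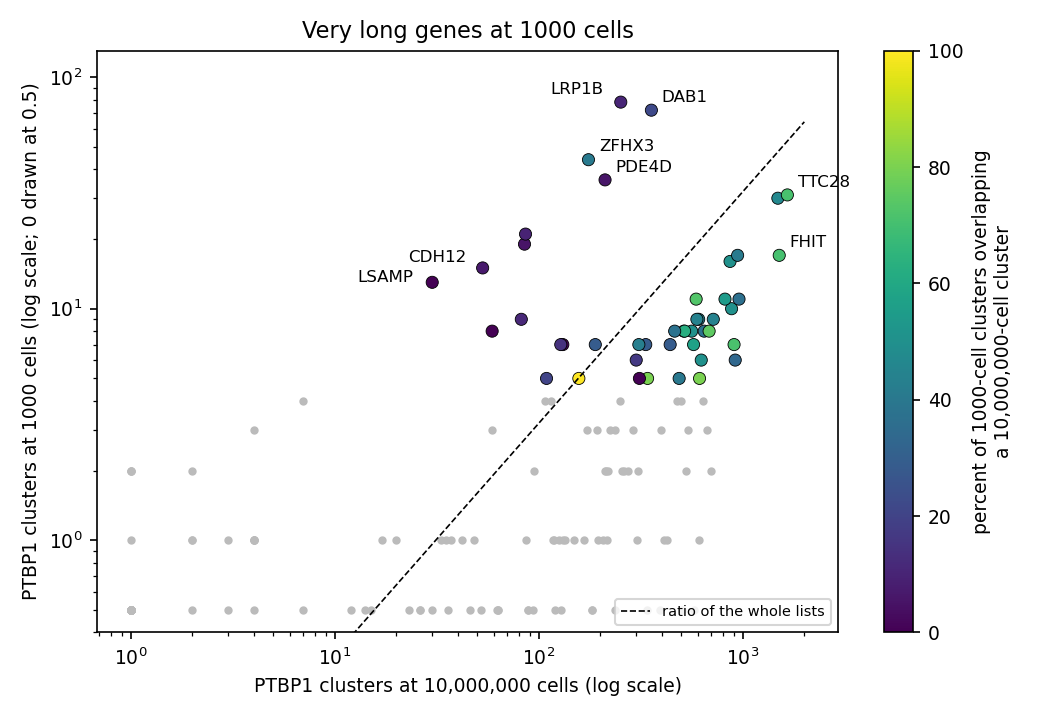
PTBP1 clusters in each very long gene at 1000 cells against the number at 10,000,000 cells (both log axes); the dashed line is the ratio of the whole lists, genes with 5 or more clusters at 1000 cells are coloured by the percent of these that overlap a 10,000,000-cell cluster, and grey points have fewer. LRP1B (78), DAB1 (72), ZFHX3 (44) and PDE4D (36) lie above the line with overlap of 5.56% to 40.9%, and TTC28 (31) and FHIT (17) below it with overlap of about 71%.

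The SpyCatcher lists are short, with 16507 and 18228 clusters for SpyCatcher 1.0 at 20 and 40 µg and 25028 and 28586 for 2.0, beside 30911 at 1000 cells. They held 397, 384, 598 and 727 clusters of very long genes in that order. These are 2.41% (2.18 to 2.65), 2.11% (1.90 to 2.33), 2.39% (2.20 to 2.59) and 2.54% (2.36 to 2.73) of their lists. Going from version 1.0 to 2.0, 10 of 34 genes lost over 2-fold in share at 20 µg, beside 18.1% of all genes tested, and 9 of 36 at 40 µg, beside 18.7%. Past 2-fold upwards were 1 of 34, beside 1.63%, and 0 of 36, beside 0.720%. TTC28 held 15, 22, 29 and 30 clusters in the order 1.0 at 20 and 40 µg, then 2.0 at 20 and 40 µg, and LRBA 10, 16, 21 and 30. Both were higher with 2.0 than with 1.0 at the same amount, and the whole lists were longer as well. LRP1B was uneven, with 40, 2, 64 and 63, as were DAB1 with 3, 24, 30 and 4, PDE4D with 0, 0, 24 and 22, and MAGI2 with 11, 0, 10 and 0. ZFHX3, also high at 1000 cells, was not uneven, with 12, 12, 17 and 27. PCDH9 held 0, 2, 0 and 1, CDH12 0 in each, and LSAMP 0, 7, 0 and 0. Unevenness was not particular to the genes that were high at 1000 cells: ERC2, an active zone scaffold, held 29, 6, 5 and 3, and MDGA2, a synaptic adhesion protein, 5, 36, 7 and 10, as seen after the fact. Each of these lists is of a single library.

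RBFOX2 clusters were rarer still in very long genes. They held 2147 of 117590, or 1.83% (1.75 to 1.90) of the list, 5.64% (5.40 to 5.88) of their PTBP1 number at the same input, against 12.4% (12.3 to 12.5) in other genes. Of 103 genes expected to hold at least 5, 72 (69.9%) were past 2-fold lower in share, beside 38.0% of all genes tested, and 0 were past it upwards, beside 14.6%. Genes of 300 to 600 kb stood at 64.1%. With entry on the mean of expected and found number the counts were 63 of 94, beside 28.0%, and 0, beside 20.6%. At like PTBP1 density the difference was small or turned in the middle classes: the RBFOX2 number was 5.12% of the PTBP1 number in very long genes against 4.44% in others from 0.1 to 0.3 per kb, and 5.35% against 5.12% from 0.3 to 1. It was lower below 0.1 and from 1 to 3 per kb, in the latter with 6.86% against 11.5%. LRBA led with 132 and TTC28 had 128, then SPAG16 94, the ephrin receptor EPHA6 79, CDKAL1 66, AUTS2 64, FHIT 63 and KLF12 61. SPAG16 thus had more RBFOX2 clusters than FHIT with 634 against 1507 PTBP1 clusters. Of the RBFOX2 clusters in very long genes 70.7% (68.7 to 72.6) overlapped a PTBP1 cluster, against 82.1% (81.9 to 82.3) in other genes. In the start-site windows GCATG stood near 0 of 6 RBFOX2 clusters of very long genes. In other genes it stood near 2.71% of 295, against 2.69% of 1041 stretches without a cluster. TCTT stood near 6 of the 6 and near 46.8% of the 295, against 23.5% and 20.3% of stretches without a cluster.

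Clusters crowded towards the 5′ end of very long genes. The first 10% of the span held 22.4% of the PTBP1 clusters at 10,000,000 cells and the last 10% 7.18%. In genes under 10 kb these values were 7.54% and 18.8%, in genes of 100 to 300 kb 13.1% and 13.8%, and in genes of 300 to 600 kb 16.6% and 9.18%, so the lean towards the start grew with span. It was present at each input: the first 10% held 21.3% at 100,000 cells, 27.7% at 10,000 and 30.4% at 1000. RBFOX2 had 31.6% there. These values pool the clusters of all very long genes. Over genes with at least 50 clusters in the list, the median share was 21.4% at 10,000,000 cells and 18.7% at 100,000. It was 22.2% at 10,000 (41 genes) and 22.2% for RBFOX2 (13 genes). The value at 1000 cells leans on LRP1B and DAB1, the 2 genes with at least 50 clusters at that input. They had 57.3% of theirs in the first 10%. In DAB1 51.4% of the 1000-cell clusters also lie in OMA1, which overlaps its 5′ end. The value without these genes was not computed. Of the 100 very long genes with at least 50 clusters, 77 had more in the first 50% of the span, beside 195 of 271 genes of 300 to 600 kb and 747 of 1429 genes of 100 to 300 kb.

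**Figure D4:**
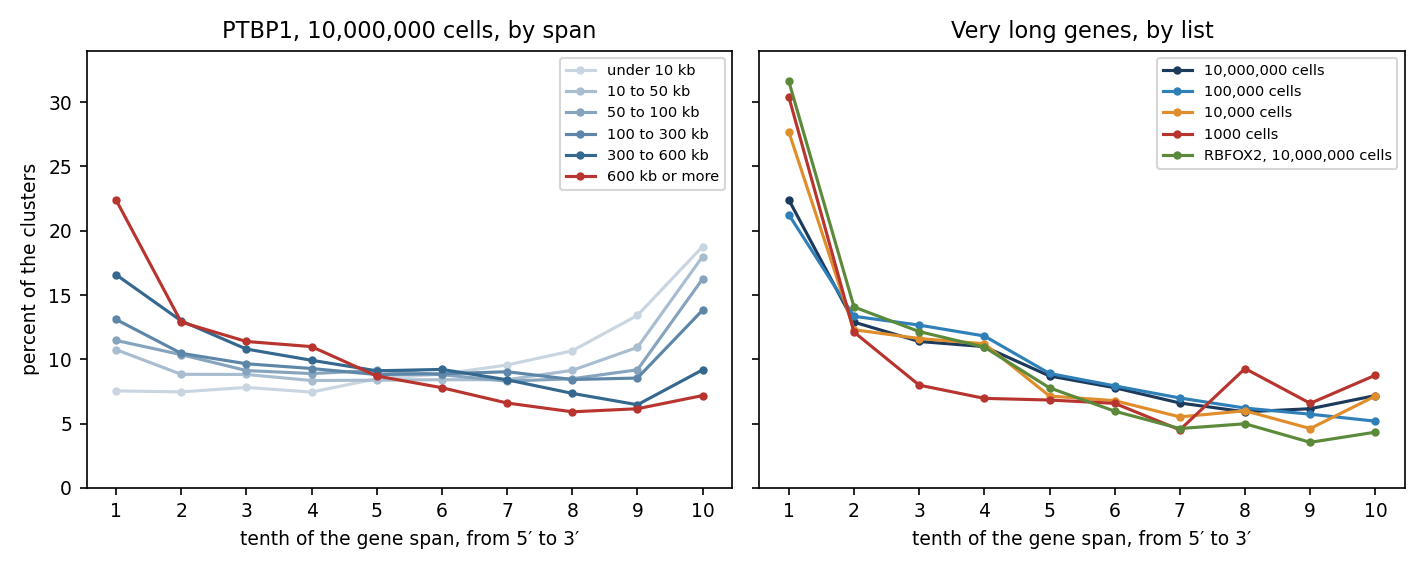
Percent of clusters in each of 10 equal parts of the gene span from the 5′ to the 3′ end, for PTBP1 at 10,000,000 cells in 6 span classes (left) and for very long genes in 5 lists (right). The first 10% holds 22.4% in very long genes and 7.54% in genes under 10 kb, and within very long genes 21.3% to 31.6% according to the list.

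Many genes were bound along only part of their span, and the part was the same at both large inputs. Of the 100 genes, 21 had at least 90% of their clusters in the first 50% of the span and 15 had at most 10%. Among 271 genes of 300 to 600 kb with as many clusters it was 5.54% and 3.69%, and among all 4929 such protein-coding genes 4.32% and 6.53%. RPS6KC1 had all 237 clusters before 27.5% of its span, and DLG2, a synaptic scaffold, all 59 before 41.3%. NBAS, a vesicle tethering factor, had 99.8% of 514 in the first 50% of the span, and SPAG16 99.2% of 634, with a median position of 2.78% of the span. MACROD2, an ADP-ribose hydrolase at a fragile site, had 99.2% of 132 there. At the other extreme the glycosyltransferase GALNT13 had 590 clusters of which the first lay at 57.9% of the span, ADGRL2, an adhesion receptor, 341 from 72.0%, TENM3, a teneurin adhesion protein, 223 from 51.6%, and SCHIP1 182 from 76.9%. NRXN3 had 1 of 213 clusters in the first 50% of the span and its 5% quantile at 65.3%. PTPRD, a receptor tyrosine phosphatase of 2298.8 kb, had 114 clusters with its 5% quantile at 76.7%.

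In the 90 genes with at least 50 clusters at both 10,000,000 and 100,000 cells, the side of the midpoint that held the majority was the same in 90 of 90, and the share in the first 50% differed by a median of 2.72 percentage points. In genes of 300 to 600 kb it was the same in 219 of 247 (88.7%), with a median difference of 4.44 points, and over all protein-coding genes in 87.8%, with 4.82 points. GALNT13 again began at 57.9%, ADGRL2 at 72.0% and TENM3 at 51.5% at 100,000 cells. The largest difference, 13.9 points, was in ZBTB20 (62.0% and 75.8%). A span joins all annotated transcripts of a gene, and which of them these cells make cannot be told from the lists. The density of such genes per kb of full span is therefore lower than over the part that was bound. The genes in this and the preceding paragraph were picked after their positions were seen, apart from those named earlier.

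By gene list the density was highest in the list of trafficking, metabolism, transcription and other genes, and lowest in receptors and channels. The lists follow gene roles and not measured expression. Counts in each list are over genes with a strand, including any whose strand was inferred from the 10,000,000-cell clusters. Genes without a strand, mostly at 0, are left out, so the numbers with a cluster and the medians are partly fixed by that list. The first also holds SPAG16, FOXP2 and EYS, which are not broadly read. In it 33 of 34 genes had a PTBP1 cluster at 10,000,000 cells, with a median density of 0.556 per kb. Signalling genes, kinases and scaffolds had one in 25 of 29, with a median of 0.105 per kb, led by FHIT, MAGI1 and EPHA6 (613). Adhesion and synapse genes had one in 28 of 37 at a median of 0.0387 per kb, led by PTPRG (612), NLGN1, the adhesion receptor ADGRB3 (487) and SDK1 (463). Receptors and ion channels had one in 10 of 14 at a median of 0.00253 per kb, and only GRID1 (311) and the calcium channel subunit CACNA2D3 (193) held over 100. The ryanodine receptor RYR2 held 62. Over all 184 genes 151 (82.1%) had a cluster, beside 66.6% of other protein-coding genes with a strand, and the median was 0.0781 per kb.

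Loss at 10,000 cells was spread over all of these lists. Past 2-fold were 13 of 29 genes tested in the list of trafficking, metabolism, transcription and other genes (median log2 change -0.89). So were 10 of 19 signalling genes (-1.14), 10 of 19 adhesion genes (-1.10) and 4 of 4 receptors and channels (-2.08), beside 32.9% of all genes and a median of -0.32. Fragile-site genes had a cluster in 14 of 15, a median density of 0.0869 per kb and a loss in 7 of 12 (-1.15). At 100,000 cells adhesion genes as a group held 120.7% of their 10,000,000-cell number, and 107.7% without LRP1B. Receptors and channels held 108.4%, signalling genes 95.9% and the list of trafficking, metabolism, transcription and other genes 94.9%. The fragile-site gene WWOX, an oxidoreductase, held 595, 701, 99 and 9 clusters, RORA, a nuclear receptor, 440, 398, 48 and 7, and NBEA, a vesicle trafficking protein, 426, 331, 42 and 1. MACROD2 held 132, 132, 8 and 1.

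The longest gene was empty. CNTNAP2, a neuronal adhesion protein at a fragile site (2304.2 kb), held 0 PTBP1 clusters at each of the 4 inputs. EYS, CTNNA2, DPP10, CNTN5, LINGO2, DCC and PTPRT, nearly all genes of neurons or the retina, are the next longest of the 33 at 0 at 10,000,000 cells. The 33 also hold genes of other kinds, such as LAMA2 and HPSE2. Other genes of neurons were full there, such as NLGN1 (502) and ERC2 (561). Absence at 10,000,000 cells did not always carry down: EYS held 3 clusters at 100,000 and 4 at 1000 cells, and CTNNA2 0 and 1. Of the 184 genes 46 had a cluster in all 9 cluster lists and 15 had none in any. Of the 163 with an annotated strand 36 (22.1%) were in all 9, beside 12.1% of all protein-coding genes with one and 24.3% of those of 100 to 300 kb.

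**Figure D5:**
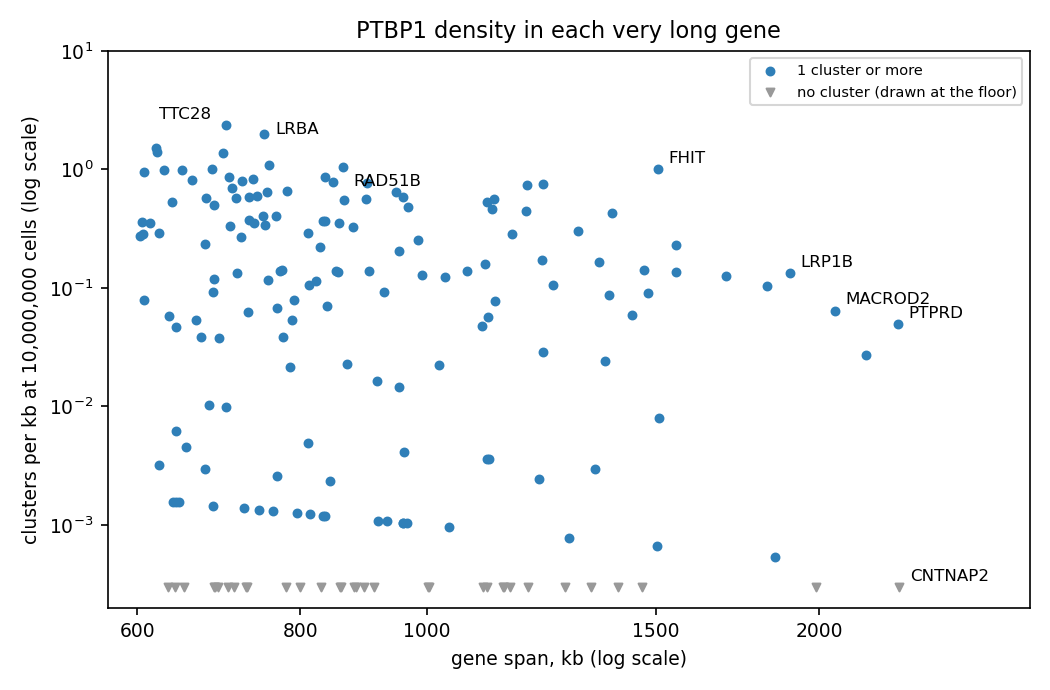
PTBP1 clusters per kb at 10,000,000 cells against the span of each of the 184 very long genes (both log axes); grey triangles at the lower edge are the 33 genes without a cluster. TTC28 (2.35 per kb) and LRBA (1.98) are the densest, FHIT has 1.00 at 1504.2 kb, and CNTNAP2, the longest, has none.

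Cas13 sites were few in very long genes. The 6 lists described here, whose sites are a median of 124 to 177 nt wide, placed 53 sites in 35 of the 184 genes. Of the 163 with an annotated strand 30 (18.4%) had one, beside 24.2% of all protein-coding genes with one and 17.5% of those of 300 to 600 kb. Without a guide, dPspCas13b had 15 sites there of 4701, 0.319% (0.179 to 0.526), at 0.0859 per Mb against 4.47 per Mb in other protein-coding genes. Without a guide, dRfxCas13d had 18 of 2808, 0.641% (0.380 to 1.01), at 0.103 against 2.75 per Mb. With EZH2g1 the numbers were 1 of 59 and 9 of 966, and with EZH2g2 3 of 625 and 7 of 1994, for dPspCas13b and dRfxCas13d. A PTBP1 cluster of the 10,000,000-cell list overlapped 7 of the 53 sites, 13.2% (5.48 to 25.3), against 38.0% (37.0 to 38.9) of 10275 sites in other protein-coding genes, which carry clusters at a higher density.

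Both proteins had a site in 6 of these genes, and their sites overlapped only in GPHN and BCAS3. In GPHN, dPspCas13b with EZH2g1 had its 1 site of this set at chr14:67181584-67181725 and dRfxCas13d with EZH2g1 a site at chr14:67181577-67181738, at 54.9% of the span. In BCAS3, a cytoskeletal regulator, both proteins without a guide had a site near the 3′ end, at chr17:61392463-61392577 and chr17:61392363-61392656. ADGRL2 held 2 sites of unguided dPspCas13b and 2 of unguided dRfxCas13d, all in the last 10% of its span but not overlapping. Of the 53 sites 4 lay within 2000 nt of a 3′ end, in BCAS3 (2 sites), GPC6 and AUTS2. TTC28 held 1 site, 3.45 kb before its end, and FHIT and LRBA 1 each, at 82.3% and 21.8% of the span. DAB1 held 3 sites of dRfxCas13d with a guide. LRRC37A2 held 2, but belongs to a family of near-identical copies, so its sites and clusters are uncertain.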

How the data were processed

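Reads were trimmed or aligned with tools that include Trim Galore 0.0.6 and STAR 2.7.9a on hg38, per the submitters' processing notes. How sites were called, duplicates removed and libraries pooled is not given in the sources used here. Deposited by the authors was 1 site list per group, with positions and strand and dots for scores. Starts, counted from 0 in the files, are given from 1. Lists of 15 groups are described, 2 further lists and a few single genes are not reported here, and groups without crosslinking or with gNT were not analysed here.

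Gene spans were RefSeq's (GRCh38.p14, the assembly of hg38), without exons. Strand came from the RefSeq start-site table, or else from at least 3 PTBP1 clusters of the 10,000,000-cell list with at least 90% on 1 strand. A site counted in each gene of its strand over its midpoint, and pooled values count a site once over the union of spans. The fold of a gene is its number over that in the comparison list, divided by the ratio of the whole lists, with a pseudocount of 0.5. The base and motif analysis had been planned for a genome and was run on promoter windows instead, without chromosome 8.

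Named genes were those with most clusters, the highest density, the most extreme ratio at 1000 cells or most RBFOX2 clusters, those at the span limit, the top members of each gene list, some at 0 and those with most Cas13 sites. Members and lists were chosen with earlier results of these data known. Counting and overlap code was tested on simulated data (200 genes, 1000 sites; 0 answers differed from the truth). Python 3.11.15, numpy 2.4.6, pandas 2.3.3 and scipy 1.17.1 were used.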

Additional observations from a re-analysis of the deposited data

How the results depend on the processing

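No paired analysis was possible because each group has 1 list and no replicate list. Of 139 alternative values of 18 results, 75 stayed within the counting interval of the main value (or, for counts of genes, within 1.5 times) and 64 moved. A reversal of direction was not scored in this count. Counting any overlap instead of the midpoint moved nothing.
Below, shares of the list stand in the order 10,000,000, 100,000, 10,000 and 1000 cells, and numbers relative to 10,000,000 cells are called relative numbers.

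Leaving out sites in another gene gave a density of 0.208 per kb and shares of 3.76%, 4.59%, 2.25% and 2.32%. Merging sites under 20 nt apart gave 0.143 per kb, shares of 4.59%, 5.35%, 2.84% and 2.87% and relative numbers of 102.1%, 20.0% and 3.06% at 100,000, 10,000 and 1000 cells, where other genes had 0.482 per kb, 86.9%, 33.0% and 4.82%. A span limit of 500,000 nt gave 0.225 per kb and 5.25%, 6.33%, 3.15% and 3.37%. A limit of 800,000 nt gave 0.158 per kb, shares of 1.96%, 2.42%, 1.14% and 1.66%, and relative numbers of 98.8% at 100,000 and 2.72% at 1000 cells. Without the 10 fullest genes the density was 0.164 per kb, the shares 2.81%, 3.38%, 1.53% and 2.01%, and the relative numbers 13.98% at 10,000 and 2.28% at 1000 cells. Subtracting the opposite strand gave 0.214 per kb and shares of 3.88% and 4.71% at the 2 largest inputs. With the 5 genes left out by the rule the shares were 4.14%, 5.03% and 2.61%, and the relative number at 10,000 cells was 16.2%.

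Settings added after seeing the data were genes of table strand only, which gave 0.215 per kb, 3.46%, 4.07%, 2.10% and 2.07%, with a relative number of 94.0% at 100,000 cells, and leaving out LRP1B and DAB1. The latter gave 3.88%, 4.62%, 2.27% and 2.03%, relative numbers of 94.9% at 100,000 and 1.67% at 1000 cells, and an overlap of 35.9% at 1000 cells. Allowing 20 nt between sites raised the overlap with the 10,000,000-cell list to 58.8%, 74.1%, 41.1% and 82.9% for 100,000, 10,000 and 1000 cells and RBFOX2. Requiring overlap of 50% of the shorter site gave 36.6%, 56.9% and 66.7% for 100,000 cells, 10,000 cells and RBFOX2.

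Genes past 2-fold loss numbered 31 of 43 instead of 49 of 72 at 1000 cells when at least 10 clusters had to be expected. This setting tests fewer genes, and 43.2% of all genes tested were past the fold, instead of 43.5%. With SpyCatcher they were 6 of 19 at 20 µg, beside 15.1% of all genes tested, and 5 of 19 at 40 µg, beside 10.7%. When 2 were enough they were 16 of 52 at 40 µg, beside 26.8%. With entry on the mean of expected and found number, a setting added after seeing the data, they were 6 of 37 instead of 10 of 34 at 20 µg. All genes entered then stood at 9.19% instead of 18.1%. The counts at 40 µg, at the other inputs and for RBFOX2 stayed within 1.5 times. The direction against other genes held in the settings run for both (main, sites in no other gene, merged sites): lower density, a higher relative number at 100,000 cells and a lower one at 10,000 and 1000.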
